A study of Mus musculus with 4 samples.

Results

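Replication-dependent histone genes code for the H1, H2A, H2B, H3 and H4 proteins that package DNA while it is copied. Their members were taken here as every protein-coding gene whose symbol begins with Hist1h, Hist2h, Hist3h or Hist4h, which gave 67 genes of the 55573 genes listed. There were 6 H1, 18 H2A, 18 H2B, 12 H3 and 13 H4 genes. The rule uses gene names and no measured value. The sample titles name the assay Polysome-Seq, but the extraction text describes RNase I digestion and the purification of protected fragments. It is therefore called ribosome profiling here, a method that sequences the mRNA fragments that ribosomes shield from RNase I. The cells were primary mouse myoblasts grown from hind-limb muscle and collected on day 2 of proliferation. They were kept in DMEM with 10% fetal bovine serum and, per the labels, 10 ug/ml FGF, and all 4 libraries were made after cycloheximide, a drug that holds ribosomes on mRNA. The 2 WT libraries came from littermate controls. The genotype of such controls is written as Pax7-CreERT2/+ in one place and as Pax7+/+;eIF5A f/f in another. The 2 eIF5A-KO libraries came from Pax7-CreERT2/+;eIF5A f/f mice given tamoxifen, and the mice were 3 weeks old. CreERT2 under Pax7 acts in satellite cells and the cells they give rise to, so any other cell in such a culture keeps the gene. Eif5a, the targeted gene, codes for a translation factor that carries hypusine. Its RPKM (reads divided by gene length and by library size, as scaled by the authors) was 34.9 and 65.2 in WT libraries 1 and 2, against 60.3 and 59.4 in eIF5A-KO libraries 1 and 2, so it was not lower where the label says KO (log2 fold change 0.32, SE 0.48, adjusted p = 0.839 by limma). Every direction below is therefore between libraries labelled KO and libraries labelled WT. The libraries of a group are described as duplicates, but not as coming from separate animals or cultures, and the spread between them may be technical.

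In dividing cells, these genes are transcribed and translated mainly in S phase. H2A, H2B, H3 and H4 form the nucleosome core, and H1 binds the linker DNA at its edge. Their mRNAs are short, mostly lack introns, and end in a stem-loop in place of a poly(A) tail. The stem-loop is bound by SLBP, which takes part in 3' end processing, export and translation, and the mRNAs are degraded quickly when DNA synthesis stops. Many copies make the same protein from coding sequences that differ at few bases, so a short footprint often matches several genes.

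The stem-loop itself could be read from the reference transcripts (GENCODE M21, build GRCm38). The pattern GGNNCTT directly followed by NTNAG and NNCC, with N for any base, was searched on the sense strand after the stop codon of the transcript with the longest coding sequence. It was found in 45 of the 67 genes, 21 to 58 bases after the stop codon (median 31). Of the 22 genes without a match, 15 have an annotated transcript that ends under 30 bases after the stop codon, which is the case for Hist1h1b and Hist1h2ai. Anywhere in a transcript, on the sense strand, 119 of 21739 other protein-coding genes held the pattern (0.547%). There were 8 distinct forms. They are shown because they are the element that sets this mRNA class apart from mRNAs with poly(A) tails. The arms of the stem are in capitals and the loop is in lower case, each with the number of histone genes that carry it and 1 example.
Hist1h1d (25 genes), chr13:23555787-23555802, plus strand: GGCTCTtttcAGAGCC
Hist1h4d (7 genes), chr13:23581950-23581965, plus strand: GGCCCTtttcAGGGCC
Hist1h3c (6 genes), chr13:23745047-23745062, minus strand: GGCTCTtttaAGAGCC
Hist2h4 (2 genes), chr3:96262939-96262954, minus strand: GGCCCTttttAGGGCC
Hist1h4j (2 genes), chr13:21735437-21735452, plus strand: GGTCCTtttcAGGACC
Hist1h4a (1 gene), chr13:23760800-23760815, minus strand: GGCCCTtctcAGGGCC
Hist1h3g (1 gene), chr13:23535889-23535904, plus strand: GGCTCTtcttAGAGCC
Hist2h2ac (1 gene), chr3:96220418-96220433, minus strand: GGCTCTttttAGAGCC
The arms are complementary in each of the 8 forms, also at the stem bases that the pattern left free. Where else the forms can differ was set by the search.

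The other sequence feature that bears on the histone values below, more in some genes than in others, is how alike the copies are. All 13 H4 genes have the same deduced protein, although they have 12 distinct coding sequences. The 12 H3 genes have 3 deduced proteins, the 18 H2A genes 9, the 18 H2B genes 12 and the 6 H1 genes 6. Median identity of coding sequences between pairs was 97.1% in H3, 93.9% in H4, 91.9% in H2B, 91.3% in H2A and 70.9% in H1. The coding sequence was identical within 4 pairs, namely Hist1h2ao with Hist1h2ap, Hist1h2bq with Hist1h2br, Hist1h4m with Hist1h4n and Hist2h2aa1 with Hist2h2aa2. The first 28 coding bases of 6 H4 genes, about the length of a footprint, are given to show what a read can and cannot tell apart. Capitals mark bases that differ from Hist1h4m.
Hist1h4m, chr13:21811784-21811811, plus strand: atgtctggtcgtggcaaaggaggaaaag
Hist1h4n, chr13:21832131-21832158, minus strand: atgtctggtcgtggcaaaggaggaaaag
Hist1h4d, chr13:23581602-23581629, plus strand: atgtctggAcgCggGaaaggCggCaaGg
Hist1h4c, chr13:23698422-23698449, minus strand: atgtctggAcgtggTaaGggTggTaaag
Hist2h4, chr3:96263277-96263304, minus strand: atgtctggCAgAggAaaGggTggaaaGg
Hist4h4, chr6:136804352-136804379, minus strand: atgtcAggAcgAggAaaaggCggCaaGg
A footprint here from Hist1h4m could not be told from Hist1h4n, while Hist1h4d differed from them at 6 bases, Hist1h4c at 5, and Hist2h4 and Hist4h4 at 7 each, all without a change in the encoded amino acids.

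Ribosome-protected reads were found on 54 of the 67 genes, 2585 reads in all. The depth was low. The libraries held 648386 and 642429 reads (WT 1 and 2) and 704006 and 650210 reads (eIF5A-KO 1 and 2), recovered from the RPKM values, of which 396, 558, 919 and 712 fell on histone genes. Protein-coding genes took 41.5% and 33.9% of reads in WT, against 65.4% and 59.2% in eIF5A-KO, so shares are given over both totals. Of protein-coding reads, histone genes took 0.147% and 0.256% in WT (mean 0.202% ± 0.0772, SD, n = 2) and 0.200% and 0.185% in eIF5A-KO (0.192% ± 0.0105, SD, n = 2). The WT libraries lay on either side of both libraries labelled KO. Of all reads, the shares were 0.0611% and 0.0869% in WT and 0.131% and 0.110% in eIF5A-KO, and the groups did not overlap. In bulk cultures, a difference in the number of cells in S phase and one in histone mRNA on ribosomes per cell cannot be told apart.

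Most histone reads came from the large cluster on mouse chromosome 13. The 31 genes between 23531050 and 23934851 (GRCm38) held 1667 reads, on 29 of them, and the 23 genes between 21715763 and 22043676 held 711 reads, on 19 of them. The 10 genes on chromosome 3 held 98 reads, on 5 of them, and the single gene on chromosome 6, Hist4h4, held 109. Both genes on chromosome 11, Hist3h2a and Hist3h2ba, were listed at 0. Within the cluster, the genes of the first of these stretches had 313, 366, 539 and 449 reads in WT 1, WT 2, eIF5A-KO 1 and eIF5A-KO 2, and those of the second had 60, 138, 322 and 191. The 6 genes with the most reads, Hist1h1b, Hist1h1a, Hist1h1d, Hist1h4d, Hist1h1c and Hist1h1e, held 53.6% of all histone reads.

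**Figure D1:**
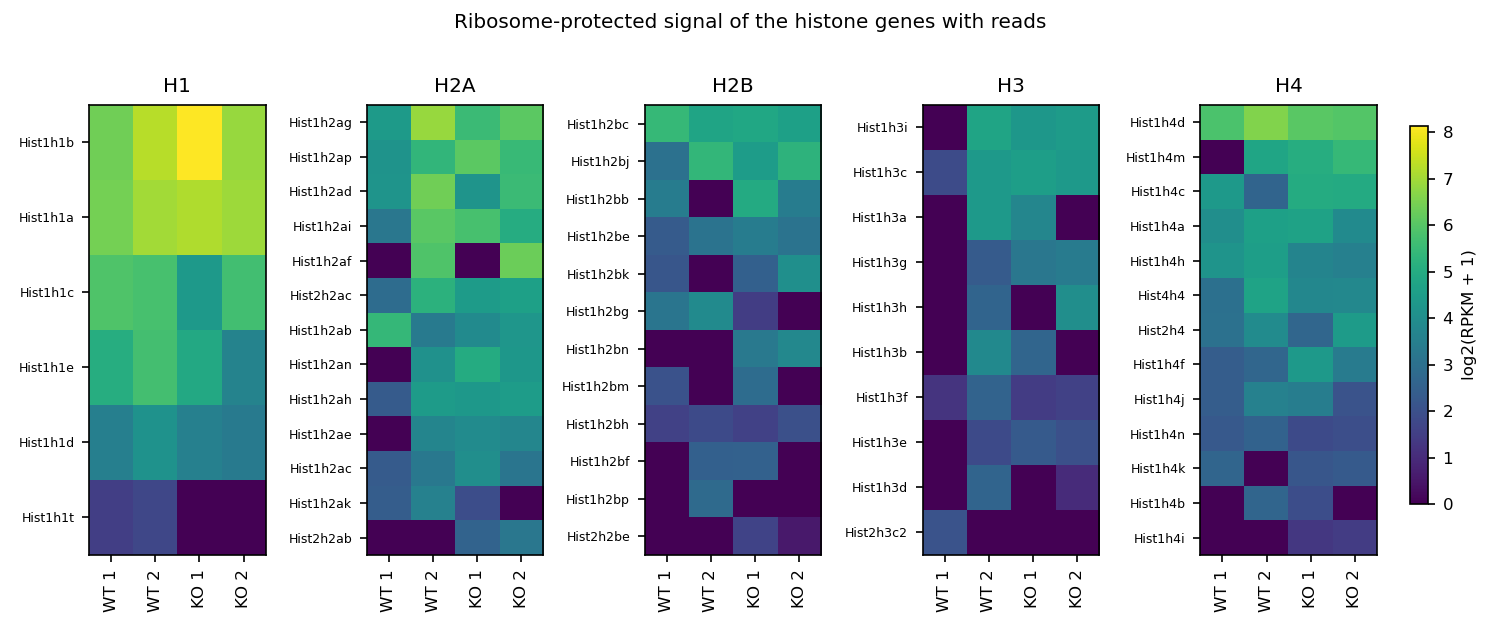
Heat map of the 54 histone genes with reads, 1 panel per class, rows ordered by mean RPKM and columns the 4 libraries (KO stands for eIF5A-KO). Colour is log2(RPKM + 1), from 0 (no read, dark) upward; WT 1 had no read on 18 of the 54 genes, WT 2 on 9, KO 1 on 6 and KO 2 on 10.

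Linker and core histones were both well represented. The 6 H1 genes held 1175 reads, 45.5% of the histone reads. The H1 share of histone reads was 54.5% (95% Wilson interval 49.6 to 59.4) in WT 1 and 43.9% (39.8 to 48.1) in WT 2, and 47.4% (44.2 to 50.7) in eIF5A-KO 1 and 39.0% (35.5 to 42.7) in eIF5A-KO 2. The group means were 49.2% ± 7.52 and 43.2% ± 5.94 (SD, n = 2 each), and the groups overlapped. These intervals, and every floor below, cover counting error only, since reads copied by PCR are not independent molecules. Among core histones, compared as reads per kilobase of coding sequence, H4 took 50.9%, 44.2%, 42.2% and 43.7% of the summed core signal in WT 1, WT 2, eIF5A-KO 1 and eIF5A-KO 2. H2A took 20.2%, 33.4%, 29.6% and 32.4% and H2B 26.96%, 14.3%, 21.4% and 17.7%. H3 took 1.89%, 8.05%, 6.84% and 6.19%, the least of the 4 core classes in every library, although the nucleosome holds equal numbers of each core histone. H3 is also the class whose coding sequences are most alike, with a median of 8.72% of 28-base coding windows found in no other histone gene. That median was little higher in H2A, at 10.9%, although H2A took a larger share than H3 in every library. It was 13.6% in H2B and, among the core classes, highest in H4. Whether shared sequence lowered the H3 share was not tested.

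A sum over a class is less touched by how reads are split between near-identical copies. It does not restore reads that may have been dropped because they match several genes. Summed in this way, the signal differed more between the 2 WT libraries than between the groups in 4 of 5 classes. H1 genes summed to 271.1 and 407.1 RPKM in WT 1 and 2 and to 484.3 and 309.2 in eIF5A-KO 1 and 2 (339.1 ± 96.2 against 396.7 ± 123.8, SD, n = 2 each). H2A genes summed to 124.4 and 477.0 in WT and to 304.5 and 375.7 in eIF5A-KO (300.7 ± 249.4 against 340.1 ± 50.3). H2B genes summed to 80.8 and 101.5 in WT and to 119.4 and 110.3 in eIF5A-KO (91.1 ± 14.6 against 114.9 ± 6.45). H2B was the only class of the 5 whose groups did not overlap, with a log2 ratio of means of 0.33, and it came to 0.65 without Hist1h2bc, its gene with the highest mean RPKM, to 0.18 without WT 1 and to 0.22 when protein-coding reads were brought to one total in every library. H3 genes summed to 7.20 and 101.5 in WT and to 73.3 and 71.1 in eIF5A-KO (54.3 ± 66.7 against 72.2 ± 1.57). H4 genes summed to 140.4 and 239.1 in WT and to 223.2 and 214.0 in eIF5A-KO (189.8 ± 69.8 against 218.6 ± 6.51).

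**Figure D2:**
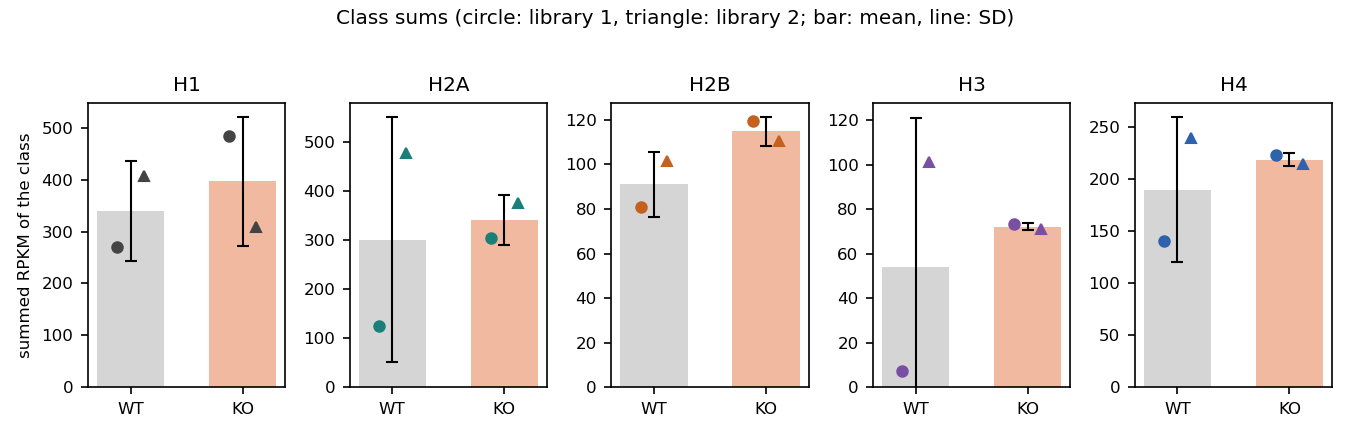
Summed RPKM of each histone class (vertical axis, from 0, with its own scale per class) in the WT and KO (eIF5A-KO) libraries; circles are library 1, triangles library 2, bars the mean and lines the SD of 2 libraries, of which the one for H3 in WT runs below 0 and is clipped there. WT 1 is the lowest of the 4 libraries in all 5 classes, and in H2A, H3 and H4 WT 2 is the highest.

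The log2 ratios of the class means, eIF5A-KO over WT, were 0.23 for H1, 0.18 for H2A, 0.33 for H2B, 0.41 for H3 and 0.20 for H4. No test was made on these sums, and 2 against 2 libraries allow no exact two-sided permutation p below 0.33. The ratio between the 2 WT libraries (WT 2 over WT 1) was 14.1 for H3, 3.84 for H2A, 1.70 for H4, 1.5 for H1 and 1.26 for H2B. Without WT 2 the log2 ratios rose to 3.33 for H3 and 1.45 for H2A, and without WT 1 they were -0.49 for each. The H1 ratio was -0.04 without WT 1, -0.13 without eIF5A-KO 1 and -0.16 without Hist1h1b, and the H4 ratio was -0.13 without WT 1. Scaling to the same sum of reads, which moves the median of all genes by 0.50, gave 0.87 for H1, 0.88 for H2A, 0.96 for H2B, 1.17 for H3 and 0.86 for H4. Counted per kilobase of coding sequence, the H1 ratio was -0.09 and that of H4 0.03.

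Of the 54 genes with reads, 51 passed the minimum of a mean of 1 RPKM and were tested, and Hist2h2be, Hist2h3c2 and Hist1h4i were not. In limma on log2(RPKM + 1) across all 11363 tested genes, 0 of the 51 passed an adjusted p of 0.05, against 0.106% of all tested genes. The smallest adjusted p was 0.113, for Hist1h2bn. At an unadjusted p of 0.05, 5 histone genes were higher and 2 lower in the libraries labelled KO, which is 9.80% and 3.92% of the 51 against 2.86% and 4.46% of all tested genes. All 7 had few reads, at most 12 over the 4 libraries. Of the 5 higher genes, Hist1h2bn and Hist2h2ab had 0 reads in WT. These 2 passed the minimum only through the libraries labelled KO, so they could only come out higher. By limma-voom on the recovered reads, which kept 26 histone genes with at least 20 reads, 0 were higher and 1 was lower at that level (3.48% and 6.66% of the genes it tested), and 0 passed the adjusted threshold. The median log2 fold change of the 51 genes was 0.20, with 30 above 0 (58.8%, against 50.0% of all tested genes), and the median of all tested genes was 0.00. The groups did not overlap in 11 histone genes higher in eIF5A-KO and in 7 lower, 21.6% and 13.7% of the 51, beside 20.1% and 20.3% of all tested genes.

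The 2 WT libraries pulled this median in opposite directions. It was 0.90 without WT 2 and -0.36 without WT 1. Of the 54 genes with reads, WT 2 was above WT 1 in 41 and below it in 9, while eIF5A-KO 2 was above eIF5A-KO 1 in 23 and below it in 28. Without WT 2, 13 histone genes were higher at an unadjusted p of 0.05 (7.12% of all genes), and without WT 1, 4 were lower (5.7% of all genes), with 0 adjusted calls in either.

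Base composition also moved with this comparison. The median GC content of the histone coding sequences was 65.1% (range 55.4% to 70.0%), against 53.1% of all tested coding genes. The trend of fold change on coding GC was removed over 9869 protein-coding genes. A fit to protein-coding genes alone, with no GC term, left the median at 0.20 and had 9 histone genes higher and 3 lower at an unadjusted p of 0.05 (4.23% and 4.22% of the genes it tested). With the trend removed, the median of the 51 was 0.76, and 15 were higher and 2 lower (3.58% and 3.14% of the 9869), among them Hist1h4c, Hist1h2ap, Hist1h2ac and Hist1h3c. The smallest adjusted p was then 0.174, and it lay between 0.081 and 0.518 over all alternatives run. With libraries scaled to the same sum of reads, 11 were higher and 1 lower, where 14.8% and 1.48% of all genes were.

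**Figure D3:**
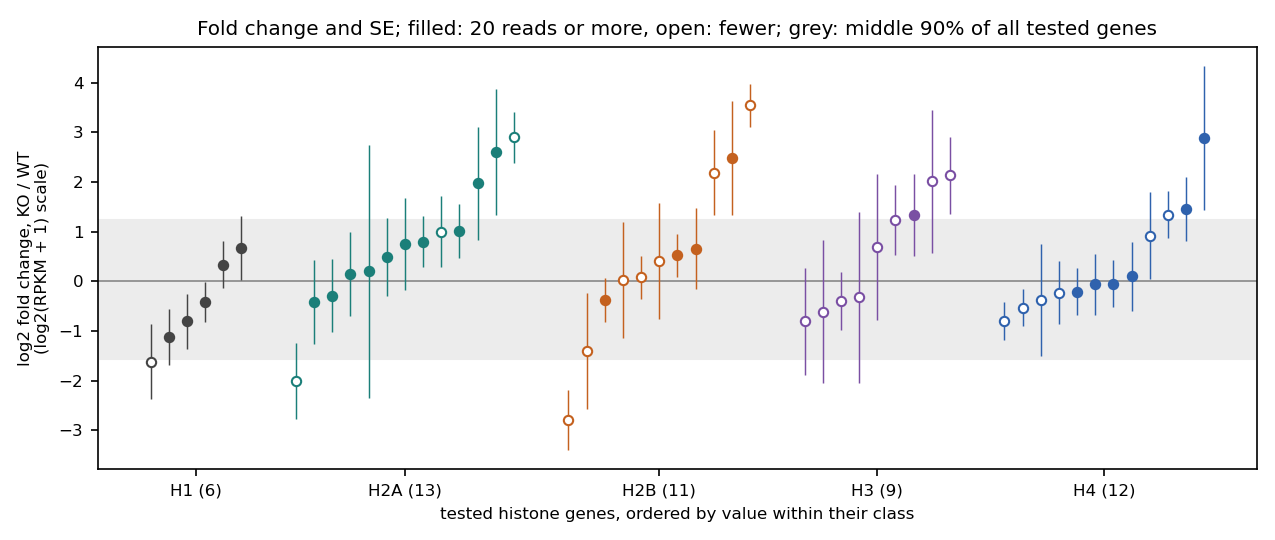
Log2 fold change (eIF5A-KO over WT, on the log2(RPKM + 1) scale, vertical axis) with its SE for the 51 tested histone genes, grouped by class (number tested in brackets) and ordered by value. Filled points had 20 or more reads over the 4 libraries, open points fewer, and the grey band spans the middle 90% of all tested genes; 25 of the 51 points are open, and the 2 highest values and the lowest belong to open points.

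Among the linker histones, 2 of 6 genes had a positive and 4 a negative log2 fold change, and none passed the test. The class median was -0.61, at -0.23 with the GC trend removed and 0.15 with the same sum of reads, and without 1 library it lay between -0.73 (WT 1) and -0.34 (eIF5A-KO 1). Hist1h1b (chr13:21779883-21780625, minus strand), which codes for the linker histone H1.5, had 82.6 and 154.3 RPKM in WT and 280.5 and 116.6 in eIF5A-KO. It reached its highest level in eIF5A-KO 1, with 189 reads against 37, 54 and 70 in the other libraries, and its groups overlapped (log2 fold change 0.68, SE 0.64, but 0.05 without eIF5A-KO 1 and 0.23 without WT 1). Hist1h1a, the gene of H1.1, had 85.1 and 128.9 RPKM in WT and 144.3 and 122.0 in eIF5A-KO (0.34, SE 0.48, but 0.04 without WT 1), again with overlap. Hist1h1c, the gene of H1.2, had 58.5 and 53.1 in WT and 19.8 and 50.0 in eIF5A-KO, and Hist1h1e, the gene of H1.4, had 32.7 and 51.7 in WT and 29.1 and 11.5 in eIF5A-KO. In both, each library labelled KO lay below each WT library. Their log2 fold changes were -0.80 (SE 0.55, adjusted p = 0.698 by limma) and -1.11 (SE 0.57, adjusted p = 0.680). Without 1 library, Hist1h1c lay between -1.45 and -0.15 and Hist1h1e between -1.75 and -0.48, lowest for Hist1h1c without eIF5A-KO 2 and for Hist1h1e without eIF5A-KO 1. With the GC trend removed they were at -0.41 and -0.80, and with the same sum of reads at -0.20 and -0.52. By limma-voom, Hist1h1e was the 1 histone gene at an unadjusted p under 0.05, at -1.13, and did not pass the adjusted threshold. Hist1h1d, the gene of H1.3, had 10.5 and 16.9 RPKM in WT and 10.5 and 9.0 in eIF5A-KO. Its low RPKM goes with a gene length of 7425 bases in the table for a coding sequence of 666 bases, and its 231 reads placed it with the other 4 H1 genes per kilobase of coding sequence. Hist1h1t, the testis H1 gene, had 1 read in each WT library and none in eIF5A-KO.

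The H2A class had the most members that lay above 0, 10 of the 13 tested. The class median was 0.75, but -0.05 without WT 1 and 1.67 without WT 2. Hist1h2ag had 20.5 and 118.2 RPKM in WT and 45.5 and 66.4 in eIF5A-KO, and Hist1h2ad had 17.4 and 81.6 in WT and 17.3 and 45.5 in eIF5A-KO. In both, WT 2 was the highest library and more than 4 times WT 1. Hist1h2ai behaved alike in WT, with 8.44 and 64.8 RPKM, and had 53.3 and 31.5 in eIF5A-KO. The log2 fold changes of these genes were 0.14, -0.42 and 0.75 (SE 0.84, 0.84 and 0.93), and the sign of each changed with the library left out. Hist1h2ap, which shares its whole coding sequence with Hist1h2ao, had 17.2 and 39.6 in WT and 66.3 and 43.7 in eIF5A-KO, a log2 fold change of 1.01 (SE 0.55, adjusted p = 0.690 by limma) with no overlap. It was 0.43 without WT 1 and 1.59 without WT 2. Hist1h2an held 0 and 3 reads in WT, against 11 and 6 in eIF5A-KO, again with no overlap (2.60, SE 1.27, but 0.55 without WT 1 and 4.65 without WT 2). Hist1h2af was the most uneven gene between libraries of one group, with 0 and 11 reads in WT and 0 and 25 in eIF5A-KO. At an unadjusted p of 0.05 there were 2 genes of this class, Hist2h2ab with 0 reads in both WT libraries and 2 and 3 in eIF5A-KO, at least 1.04-fold higher against a floor of 3 reads over the WT group, and Hist1h2ak with 1 and 2 reads in WT and 1 and 0 in eIF5A-KO (log2 fold change -2.01, but -2.97 to -1.04 with 1 library left out).

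In the H2B class 8 of 11 tested genes lay above 0. The class median was 0.41, but -0.01 without WT 1 and 0.77 without WT 2. Hist1h2bc had the highest mean RPKM of the class over the 4 libraries, although it was the highest gene only in WT 1, with 43.0 and 25.7 in WT and 27.7 and 23.6 in eIF5A-KO, with overlap (log2 fold change -0.37, SE 0.45, positive after removal of the GC trend or scaling to the same sum). Hist1h2bj had 7.17 and 41.3 in WT and 21.4 and 37.4 in eIF5A-KO, so that WT 2 was again the highest library (0.66, SE 0.82, negative without WT 1). Hist1h2bb held 3 and 0 reads in WT, against 14 and 4 in eIF5A-KO (2.48, SE 1.15, but 4.2 without WT 1 and 0.77 without WT 2). Hist1h2be had 93 reads spread over 4446 bases of annotated exons, at 4.10 and 7.64 RPKM in WT and 9.67 and 7.52 in eIF5A-KO (0.52, SE 0.43, but 0.14 without WT 1 and 0.90 without WT 2). The 3 genes of this class at an unadjusted p of 0.05 had between 7 and 9 reads. Hist1h2bn had 0 reads in both WT libraries and 3 and 4 in eIF5A-KO, at least 1.46-fold higher against the floor of 3 reads over the group. Hist1h2bk held 1 and 0 reads in WT, against 2 and 6 in eIF5A-KO, and Hist1h2bg, in the other direction, had 3 and 4 in WT and 1 and 0 in eIF5A-KO.

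H3 genes had the fewest reads, 102 over 12 genes. In WT 1 the whole class held 4 reads, whereas WT 2 had 29, eIF5A-KO 1 had 38 and eIF5A-KO 2 had 31, and 7 of the 10 genes with reads had none in WT 1. Hist1h3c had 2.63 and 20.2 RPKM in WT and 22.8 and 19.7 in eIF5A-KO (log2 fold change 1.33, SE 0.83, but 0.06 without WT 1 and 2.61 without WT 2), so that WT 1 stood below the other 3 libraries. Hist1h3i had 0 and 25.8 in WT and 18.8 and 21.1 in eIF5A-KO (2.01, SE 1.43, negative without WT 1). Hist1h3a held 0 and 5 reads in WT, against 6 and 0 in eIF5A-KO, with no direction that held when a library was left out. Hist1h3g, at an unadjusted p of 0.05, held 0 and 1 reads in WT, against 4 in each eIF5A-KO library.

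Of the H4 genes, 5 of the 12 tested lay above 0 and 7 below. The class median of -0.05 had no stable sign, at -0.47 without WT 1, 0.46 without WT 2, 0.41 without eIF5A-KO 2, 0.36 with the GC trend removed and 0.54 with the same sum of reads. Hist1h4d (chr13:23581598-23582735, plus strand) had the most reads of any core histone gene, 212, and the highest signal of all 67 genes per kilobase of coding sequence. It had 55.4 and 95.1 RPKM in WT and 64.9 and 60.9 in eIF5A-KO, so that the libraries labelled KO lay between the WT libraries (log2 fold change -0.20, SE 0.48, positive after removal of the GC trend, under scaling to the same sum and without WT 2). Hist1h4c had 20.2 and 5.18 in WT and 30.9 and 30.2 in eIF5A-KO, with no overlap (1.46, SE 0.64, adjusted p = 0.675 by limma). It was 2.35 without WT 1 and 0.57 without WT 2. Hist1h4m had 0 and 26.4 in WT and 32.9 and 43.1 in eIF5A-KO, also with no overlap (2.89, SE 1.45, but 0.50 without WT 1 and 5.27 without WT 2). Hist1h4a had 15.4 and 23.6 in WT and 24.5 and 13.8 in eIF5A-KO, with each eIF5A-KO library on a different side of the WT pair (-0.05, SE 0.47, positive without WT 2 and in 3 other settings). Hist1h4f, at an unadjusted p of 0.05, had 1 read in each WT library and 7 and 3 in eIF5A-KO. Hist1h4h lay the other way, with 17.6 and 22.6 RPKM in WT and 11.7 and 10.5 in eIF5A-KO from 4 or 5 reads in each library.

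At the median, genes without reads had less sequence of their own than genes with reads. Over the exons of a gene, the share of 28-base windows found in no other histone gene had a median of 19.3% in the 13 genes without reads and 43.6% in the 54 with reads. The 28 genes with at least 50% of such windows held 76.3% of all histone reads, and the H1 genes, with a median of 96.3%, the most per gene. Across the 67 genes, Spearman's rho between this share and the reads was 0.26, as a description of genes that share libraries and reads. Over windows of the coding sequence alone, rho was 0.16. When both strands of all annotated transcripts were searched, 5 genes had no window of their own (Hist2h2aa1, Hist2h2aa2, Hist2h2bb, Hist2h3b and Hist2h3c1), and all 5 were listed at 0. Sequence of its own did not go with reads in every case. Hist1h2aa and Hist1h2ba, genes of histones known from testis, and Hist3h2ba were listed at 0 although 54.6% to 71.1% of their exon windows were found nowhere else in the transcripts. Hist3h2a, also at 0, had 67.8% of such exon windows, but 0 of its 366 coding windows were its own. A count of 0 in the 4 libraries together allows up to 3 reads, which is 0.486 to 2.82 RPKM in these 13 genes depending on their length.

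Copies with the same coding sequence had unequal counts in 2 of the 4 pairs. Hist1h2ap had 60 reads while Hist1h2ao had 0, and Hist1h4m had 31 while Hist1h4n had 4. Both members of the other pairs, Hist1h2bq with Hist1h2br and Hist2h2aa1 with Hist2h2aa2, were at 0. In all, 13 genes had no coding window of their own among the histone genes, and 7 of these still held 329 reads, among them Hist1h2bc with 95, Hist1h2ag with 79 and Hist1h2ad with 58. How multi-mapping reads were handled is not given in the sources used here, so the level of each of these genes on its own is uncertain. Among H3 genes, the 2 genes with at least 50% of their windows to themselves, Hist1h3d and Hist2h3c1, gave a log2 ratio of -2.36, from 4 reads in all. Among H2A genes, the 5 such genes gave 1.35, beside 0.18 for the whole class. Their reads were 66 on Hist1h2ac, 20 on Hist1h2ae and 5 on Hist2h2ab.

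**Figure D4:**
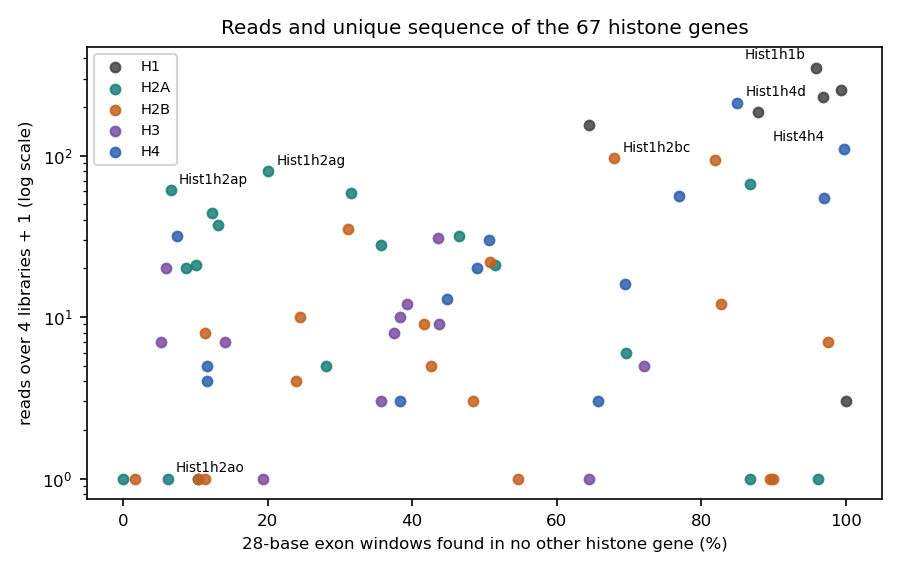
Reads of each of the 67 histone genes over the 4 libraries plus 1 (vertical axis, log scale) against the percentage of its 28-base exon windows found in no other histone gene, coloured by class. The 13 genes without reads lie on the bottom line, 5 of the 6 H1 genes lie at the upper right, and Hist1h2ap and Hist1h2ao, which share a coding sequence, lie at 60 and 0 reads with 6.59% and 6.18% of such windows.

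Genes that make, process, carry and deposit histones were read from lists in the same comparison, and none of them passed an adjusted p of 0.05 by limma. Of 20 listed symbols of histone 3' end processing and transcription, 18 were found and 15 tested. The other two were Ars2, another name of Srrt, which is on the list as well, and Symplk, a misspelling of Sympk, which was not read for this list. Their median log2 fold change was 0.33, with 12 above 0, 6 without overlap in the higher and 1 in the lower direction (20.1% and 20.3% of all tested genes). Slbp, the stem-loop binding protein, had 4.37 and 5.24 RPKM in WT and 10.7 and 5.71 in eIF5A-KO, so that the 2 groups did not overlap (0.61, but 0.21 without eIF5A-KO 1). Npat, which coactivates histone gene transcription, had 3.72 and 3.40 in WT and 3.88 and 1.39 in eIF5A-KO (-0.42). Upf1, a helicase that takes part in histone mRNA decay, had 33.0 and 21.6 in WT and 37.0 and 31.1 in eIF5A-KO, with overlap. Ncbp1, a subunit of the cap-binding complex, and Cpsf3, the endonuclease that cuts the pre-mRNA, had the next highest levels, with means of 20.6 and 17.5 RPKM. Cstf3, of the cleavage stimulation factor, was the 1 gene of the 15 at an unadjusted p of 0.05. In the higher direction, 2.86% of all tested genes passed that level. The log2 fold change of Cstf3 was 1.34, and 0.72 to 1.97 with 1 library left out.

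Histone chaperones and nuclear import factors lay mostly above 0, without passing the adjusted threshold in any gene. All 23 were found and 22 tested, with 20 above 0, a median of 0.66 and 14 without overlap in the higher direction (63.6%, beside 20.1% of all tested genes). The median was 0.42 without WT 1 and 0.41 with the GC trend removed. Npm1, a nucleolar chaperone, had 39.8 and 58.1 RPKM in WT and 91.0 and 74.8 in eIF5A-KO. Rbbp7, of the complexes that bind H4, had 25.7 and 59.1 in WT and 75.8 and 88.5 in eIF5A-KO. Kpnb1, importin beta, had 27.9 and 53.8 in WT and 57.7 and 63.9 in eIF5A-KO. In these genes both libraries labelled KO were above both WT libraries, and WT 1 was the lowest. Asf1b, which hands H3 and H4 to the assembly machinery, held 1 and 2 reads in WT, against 17 and 10 in eIF5A-KO (log2 fold change 1.78, unadjusted p = 0.008, adjusted p = 0.608 by limma).

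The S phase list also had a high share of groups that did not overlap. Of 43 genes 39 were tested, with 36 above 0, a median of 0.86, 22 without overlap in the higher direction (56.4%, beside 20.1% of all tested genes) and none in the lower (20.3%). Pcna, the sliding clamp of DNA polymerase, had 16.6 and 46.0 RPKM in WT and 28.5 and 41.8 in eIF5A-KO, Rrm2, a subunit of ribonucleotide reductase, had 2.99 and 20.7 in WT and 19.1 and 21.4 in eIF5A-KO, and the helicase subunit gene Mcm6 had 5.69 and 18.2 in WT and 19.6 and 20.2 in eIF5A-KO. WT 1 was the lowest library in each, as it was in all 5 histone classes. At an unadjusted p of 0.05, 7 genes were higher (17.9%, beside 2.86% of all tested genes), namely Mcm4, Rfc4, Rrm1, Rpa2, Gins1, Cdk2 and Ccna2, with log2 fold changes of 1.02 to 1.79. The smallest adjusted p was 0.660. With 1 library left out, Gins1 lay between 0.83 and 2.76, Ccna2 between 1.01 and 2.36 and Rrm1 between 0.79 and 2.14. Rpa2 then lay between 0.70 and 2.03, Rfc4 between 0.88 and 1.78, Mcm4 between 1.00 and 1.40 and Cdk2 between 0.88 and 1.17. The S phase median was 0.45 without WT 1, 1.12 without WT 2 and 1.38 with the same sum of reads. Over the same libraries, summed RPKM of the S phase list was 143.2 and 287.4 in WT and 381.7 and 317.9 in eIF5A-KO, while the histone genes summed to 624 and 1326 and to 1205 and 1080. The S phase sums did not overlap between the groups and the histone sums did. The difference between the lists was not tested. The histone median moved from 0.20 to 0.76 with the GC trend removed, and the S phase median in that setting is not given here.

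Histone variants, most of which are also made outside S phase from mRNAs with poly(A) tails, did not lie to one side. All 11 were found and 10 tested, with 6 above 0, a median of 0.03, 1 without overlap in the higher and 2 in the lower direction, again beside 20.1% and 20.3% of all tested genes. H3f3b, a gene of H3.3, had 51.8 and 115.5 RPKM in WT and 48.2 and 64.5 in eIF5A-KO. H1f0, the linker histone of resting and differentiated cells, had 43.6 and 32.02 in WT and 26.8 and 35.5 in eIF5A-KO. H2afz, the gene of H2A.Z, had 14.01 and 26.3 in WT and 19.9 and 27.2 in eIF5A-KO. The groups overlapped in all 3.

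**Figure D5:**
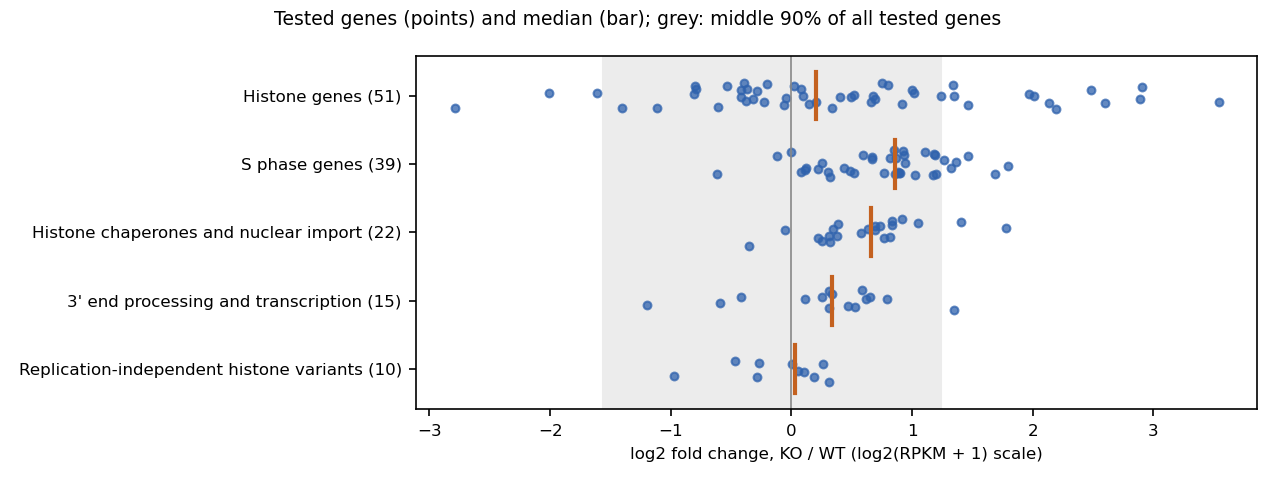
Log2 fold change (eIF5A-KO over WT, horizontal axis, log2(RPKM + 1) scale) of each tested gene in the histone group and in the 4 lists of related genes (number tested in brackets), with the median as an orange bar and the middle 90% of all tested genes in grey. Medians are 0.20 for histone genes, 0.86 for S phase genes, 0.66 for chaperones and import factors, 0.33 for 3' end processing and 0.03 for variants; points are spread vertically at random for visibility.

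Summed marker levels, given without a test, overlapped between the groups for fibroblasts and immune cells and did not for myoblasts and endothelial cells. Summed RPKM of the 7 myoblast markers (Pax7, Myf5, Myod1, Des, Cdh15, Itga7 and Chrna1) was 248.0 and 195.3 in WT and 97.7 and 118.8 in eIF5A-KO, and 6 of the 7 had reads in every library. The 8 fibroblast markers (Col1a1, Col1a2, Col3a1, Pdgfra, Dcn, Lum, Postn and Thy1), all with reads in every library, summed to 460.8 and 270.5 in WT and to 775.1 and 345.7 in eIF5A-KO. The 6 endothelial markers (Pecam1, Cdh5, Kdr, Tek, Flt1 and Emcn), all with reads in every library, summed to 111.3 and 104.7 in WT and to 148.5 and 117.2 in eIF5A-KO. The 6 immune markers (Ptprc, Cd68, Adgre1, Itgam, Csf1r and Cd14) summed to 34.3 and 47.7 in WT and to 52.7 and 43.9 in eIF5A-KO, with 3 of 6 read in every library and Itgam at 0 in all 4. The part of these markers, and of the share of protein-coding reads, in the histone and S phase values was not tested.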

How the data were processed

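The deposited values were RPKM per gene and library, computed by the authors. Per the study's methods, low-quality, rRNA and tRNA reads were removed, the rest were mapped with Tophat2 (build mm10) and counted with HTSeq. Rules for strand and multi-mapping reads are not given in the sources used here. Multiplied by gene length, 100% of values above 0 were whole multiples of 1 step per library (tolerance 0.001), so reads were recovered. The authors' library sizes matched median-of-ratios factors over 10490 genes.

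Groups followed the sample titles. A mean of 1 RPKM or more was required, and genes were tested with limma 3.58.1 (trend, R 4.3.3) on log2(RPKM + 1), two-sided, with Benjamini-Hochberg adjustment over 11363 genes; fold changes on this scale understate low genes. The method was tested on simulated data, but only for large changes in genes with more reads than the median histone gene had. That check therefore does not tell how it performs for most histone genes. Coding sequences came from GENCODE M21, where all 67 histone genes had the same coordinates. Named were the 4 genes of highest mean RPKM per class, those at an unadjusted p under 0.05, those with over 10 reads in a library and no overlap, the top 3 per list, Slbp, Npat and Eif5a; other genes were named after their values were seen, for missing reads, testis genes, uneven libraries or shared sequence. The members and lists were chosen with earlier results of these data known. Alternatives were the pseudocount (0.1), filters, 2 other scalings, protein-coding genes only, the GC trend, limma-voom, the replicate number as a block and leaving out each library.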

Additional observations from a re-analysis of the deposited data

How the results depend on the processing

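No histone gene and no gene of the 4 lists passed an adjusted p of 0.05 by limma in the main setting or in any alternative run. The count of histone genes at an unadjusted p under 0.05 was unstable. Higher genes (5 in the report) numbered 3 with a pseudocount of 0.1 (2.75% of all genes tested in that setting), 2 with a minimum of 5 RPKM (3.23%), 11 with the same sum of reads (14.8%), 9 among protein-coding genes only (4.23%), 15 with the GC trend also removed there (3.58%) and 0 by limma-voom (3.48%). Lower genes (2 in the report) numbered 1 with a pseudocount of 0.1 (4.36%), with a minimum of 5 RPKM (5.93%), with the same sum of reads (1.48%) and by limma-voom (6.66%). Leaving out 1 library leaves a lone library, taken to vary like the other group, and gave 2 to 13 higher and 2 to 4 lower genes (1.8% to 7.12% and 1.98% to 6.96% of all genes). With the replicate number as a block, 7 were higher and 2 lower (2.8% and 4.48% of all genes), with 0 adjusted calls. Deviations of same-numbered libraries correlated at 0.06. The labels do not say what the numbers stand for. Counting error at this depth lowers such a correlation, so it cannot show whether same-numbered libraries were handled together.

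The same sum of reads shifts the median of all genes by 0.50. Class log2 ratios were then 0.87 (H1), 0.88 (H2A), 0.96 (H2B), 1.17 (H3) and 0.86 (H4). H2B without its top gene gave 0.65. From genes with at least 50% unique windows, H3 gave -2.36 and H2A 1.35. Leaving out 1 library moved the H3 ratio between -0.49 and 3.33. List medians with the same sum were 0.93 (3' end processing), 1.06 (chaperones), 1.38 (S phase) and 0.50 (variants), and leaving out 1 library gave 0.21 to 0.52 for 3' end processing, 0.42 to 0.79 for chaperones and -0.52 to 0.25 for variants.

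Signs of named genes changed as follows. With the same sum, whose shift by itself turns small negative values positive, Hist1h2bc was at 0.22, Hist1h4a 0.54, Hist1h4d 0.40, Hist1h3a 0.061, Hist1h2ad 0.18, H3f3b 0.14, Npat 0.036 and H1f0 0.33. With the GC trend removed, Hist1h2bc was at 0.032, Hist1h4a 0.44, Hist1h4d 0.21, Hist1h3a 0.19 and Hist1h2ad 0.19. Leaving out 1 library gave ranges of -0.12 to 0.76 for Eif5a, -0.17 to 0.69 for H2afz, -1.04 to 0.10 for H3f3b, -1.50 to 0.67 for Hist1h2ad, -1.09 to 1.38 for Hist1h2ag, -0.65 to 2.15 for Hist1h2ai, -0.53 to 1.85 for Hist1h2bj, -2.51 to 1.87 for Hist1h3a, -0.36 to 4.39 for Hist1h3i, -0.44 to 0.35 for Hist1h4a, -0.59 to 0.18 for Hist1h4d, -0.43 to 1.06 for Ncbp1, -0.93 to 0.10 for Npat, -0.40 to 1.01 for Pcna and -0.030 to 2.41 for Rrm2. The cause of these changes was not tested. The median tested histone gene had 20 reads in the 4 libraries together, which limits what single genes can show.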
